A study of Mus musculus with 12 samples.

Results

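The genes described here encode the enzyme families that write and remove methyl and acetyl groups on DNA and histones: DNA methyltransferases, TET dioxygenases, histone deacetylases, sirtuins, lysine acetyltransferases, lysine methyltransferases, lysine demethylases and arginine methyltransferases. They were chosen by symbol, as RefSeq genes named Dnmt, Tet, Hdac, Sirt, Kat, Kmt, Setd, Kdm or Prmt followed by a digit, without Kdm6a, Kdm6b, Kdm5c and Kdm5d. Of 80 such symbols 71 had a probe on the array, and 68 were tested, each having a probe well above background throughout the 4 arrays of some group, among 13168 genes tested in all. The 68 are 67 protein-coding genes of these families and Dnmt3aos, a long noncoding RNA on the strand opposite Dnmt3a. Hdac11, Kdm4d and Prmt8 had a probe that was not well above background on any of the 12 arrays. Kmt2a and 8 pseudogenes (Dnmt3a-ps1, Dnmt3b-ps1, Dnmt3l-ps1, Hdac1-ps, Kat2b-ps, Kat6b-ps1, Kat6b-ps2 and Kdm4dl) had no probe with a matching name. Every one of the 68 was well above background on all 12 arrays, apart from Hdac8, which was so on 3 of 4 LPS_IFNg_emodin arrays, and Hdac9, which was so on 1 LPS_IFNg_emodin array, 2 LPS_IFNg arrays and 4 control arrays.

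RNA came from cultured peritoneal macrophages of C57BL/6 mice, a common inbred strain, labelled wild type (WT) in all 3 groups, and was measured on 12 one-colour Agilent arrays, 4 per group. LPS_IFNg_emodin cells received lipopolysaccharide (LPS, 100 ng/ml, a bacterial cell wall component), interferon gamma (IFNg, 20 ng/ml, a lymphocyte cytokine) and emodin (50 μM, a plant anthraquinone). LPS_IFNg cells received the first 2 agents and control cells received vehicle, each for 20 hours. The mice of the first 2 groups are labelled 9 weeks old and female, and those of the control group 8 weeks old, 2 female and 2 male. The series asks, by its title, whether emodin inhibits classical activation, the inflammatory state that LPS and IFNg bring about. Values are log2 signals relative to the 75th percentile of the same array, so 0 marks that percentile. Changes are differences of group means on this log2 scale with the standard error of the limma fit (n = 4 arrays per group). A change was called where its adjusted p, by the Benjamini-Hochberg procedure over all 13168 genes, was under 0.05.

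Chromatin carries marks that change how readily a gene is transcribed. Acetyltransferases add acetyl groups to histone lysines, mostly at active genes, and deacetylases and sirtuins take them off. Methyltransferases mark lysines and arginines in ways that go with either active or silent genes, demethylases remove lysine methylation, and DNA methyltransferases and TET enzymes place and oxidise methyl groups on cytosines. In macrophages, these enzymes are known for helping to set which inflammatory genes respond to bacterial products, and many of them also modify proteins other than histones.

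The arrays and labels bear on all values below in several ways. Of 8 macrophage genes tested, 7, Lyz2, Csf1r and Adgre1 among them, were well above background on all 12 arrays. Gata6, a factor of large peritoneal macrophages, was dim, with means of -2.94 on LPS_IFNg_emodin, -1.81 on LPS_IFNg and -0.38 on control arrays. Timd4, a receptor of resident macrophages, was above background on no LPS_IFNg_emodin array and was at least 6.45-fold lower with emodin (adjusted p = 2.34e-08). Neutrophil genes were mixed. S100a8, which other myeloid cells also express, had means of 3.14, 4.01 and 3.41 on the arrays of LPS_IFNg_emodin, LPS_IFNg and control, and Elane 4.57, 3.46 and 4.31. Both of these and Camp were well above background on all 12 arrays, while Ngp was so on none. The stimulation was visible, since Nos2, which makes nitric oxide, rose by 11.47 ± 0.17 (adjusted p = 4.02e-13) in LPS_IFNg against control and fell by 1.49 ± 0.17 (adjusted p = 8.38e-06) with emodin. The chemokine Cxcl10 rose by 9.54 ± 0.26 (adjusted p = 4.81e-11) and fell by 3.13 ± 0.26 (adjusted p = 6.41e-07) in the same comparisons. Control arrays lay on a slide of their own, scanned separately, so slide and treatment cannot be told apart in comparisons with control. The 75th percentile of the signal was 370 to 466 on LPS_IFNg_emodin arrays, 637 to 795 on LPS_IFNg arrays and 633 to 810 on control arrays. Spike-in RNAs of the labelling kit differed by -0.091 ± 0.059 between LPS_IFNg_emodin and LPS_IFNg (SE, n = 4, exact two-sided permutation p = 0.2). The median gene differed by -0.89 ± 0.10 before scaling (exact two-sided permutation p = 0.0286, which is as small as this design allows). Changes with emodin below are relative to the other genes of the array, and with the spike-ins as the scale the median change of all genes was -0.67. Replicate 3 of LPS_IFNg_emodin and of LPS_IFNg, both labelled female, had Xist at -6.04 and -5.97 and were the 2 arrays of these groups where it was not above background. On the same arrays the Y-linked gene Eif2s3y was at 1.88 and 1.01 and Ddx3y at -0.77 and 0.24, above background there and on none of the other 10 arrays. Control replicates 3 and 4, labelled male, had Xist at 0.19 and 0.44. The sex label of 4 arrays thus goes against these genes, and whether samples are mixed up within groups was not tested. Without those 2 replicate 3 arrays, 45 members were called in LPS_IFNg_emodin against LPS_IFNg in place of 49. Over all 13168 genes, 8824 were then called in place of 9457. Without the 2 controls, 49 members were called in LPS_IFNg against control in place of 45, and 8719 of all genes in place of 9078. In whole cultures, fewer cells of a type and less RNA per cell cannot be told apart.

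With emodin added to LPS and IFNg, 31 of 68 members rose and 18 fell, and the background over all 13168 genes was 35.1% higher and 36.8% lower. The 49 called members are 72.1%, close to the 71.8% of all genes. The 4 arrays of each group did not overlap for 46 members, against a background of 67.4%. A call of at least 2-fold was made for 11 members, 16.2% against 26.5% of all genes, with 5 higher (background 9.98%) and 6 lower (background 16.5%). The median change was 0.14 over the members and -0.0069 over all genes. The 5 that rose at least 2-fold were Dnmt3aos, Dnmt3a, Prmt9, Hdac5 and Setd7, and the 6 that fell at least 2-fold were Dnmt3l, Setd4, Kat2b, Sirt5, Hdac8 and Hdac1. With arrays scaled to the spike-ins, 5 members were higher (background 9.13%) and 39 lower (background 64.7%). Those 5 were the same genes that rose at least 2-fold with percentile scaling, and 26 members turned direction, 25 of them called under at least one of the 2 scalings. Leaving out any single array left between 43 and 50 members called, and 9068 to 9590 of all 13168 genes.

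With LPS and IFNg alone, 28 of 68 members rose (background 33.8%) and 17 fell (background 35.2%) against control, 45 in all against a background of 68.9%. Arrays did not overlap for 43 members (background 64.3%), and 14 changed at least 2-fold (background 26.3%), 8 higher (background 14.2%) and 6 lower (background 12.1%). Kmt2d, Kdm3a, Kat2b, Setd4, Kdm4b, Hdac7, Kdm1a and Dnmt3l made up the 8, and Dnmt3aos, Dnmt3b, Hdac5, Dnmt1, Sirt5 and Kmt5c the 6. The median was 0.13 over the members and -0.039 over all genes. In LPS_IFNg_emodin against control, 31 rose (background 38.9%) and 21 fell (background 39.2%), 52 in all (background 78.1%). Of these, 21 changed at least 2-fold (background 38.5%), 11 higher (background 17.4%) and 10 lower (background 21.1%), with arrays that did not overlap for 50 (background 72.3%). With the percentile taken over probes detected on all arrays, the split of the last comparison was 27 higher and 28 lower. Over all 13168 genes it was then 4330 higher and 5996 lower. The 3 comparisons share arrays, since LPS_IFNg arrays enter the first 2 and control arrays the last 2, so their values stand side by side below and no relation between them is given as a result.

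**Figure D1:**
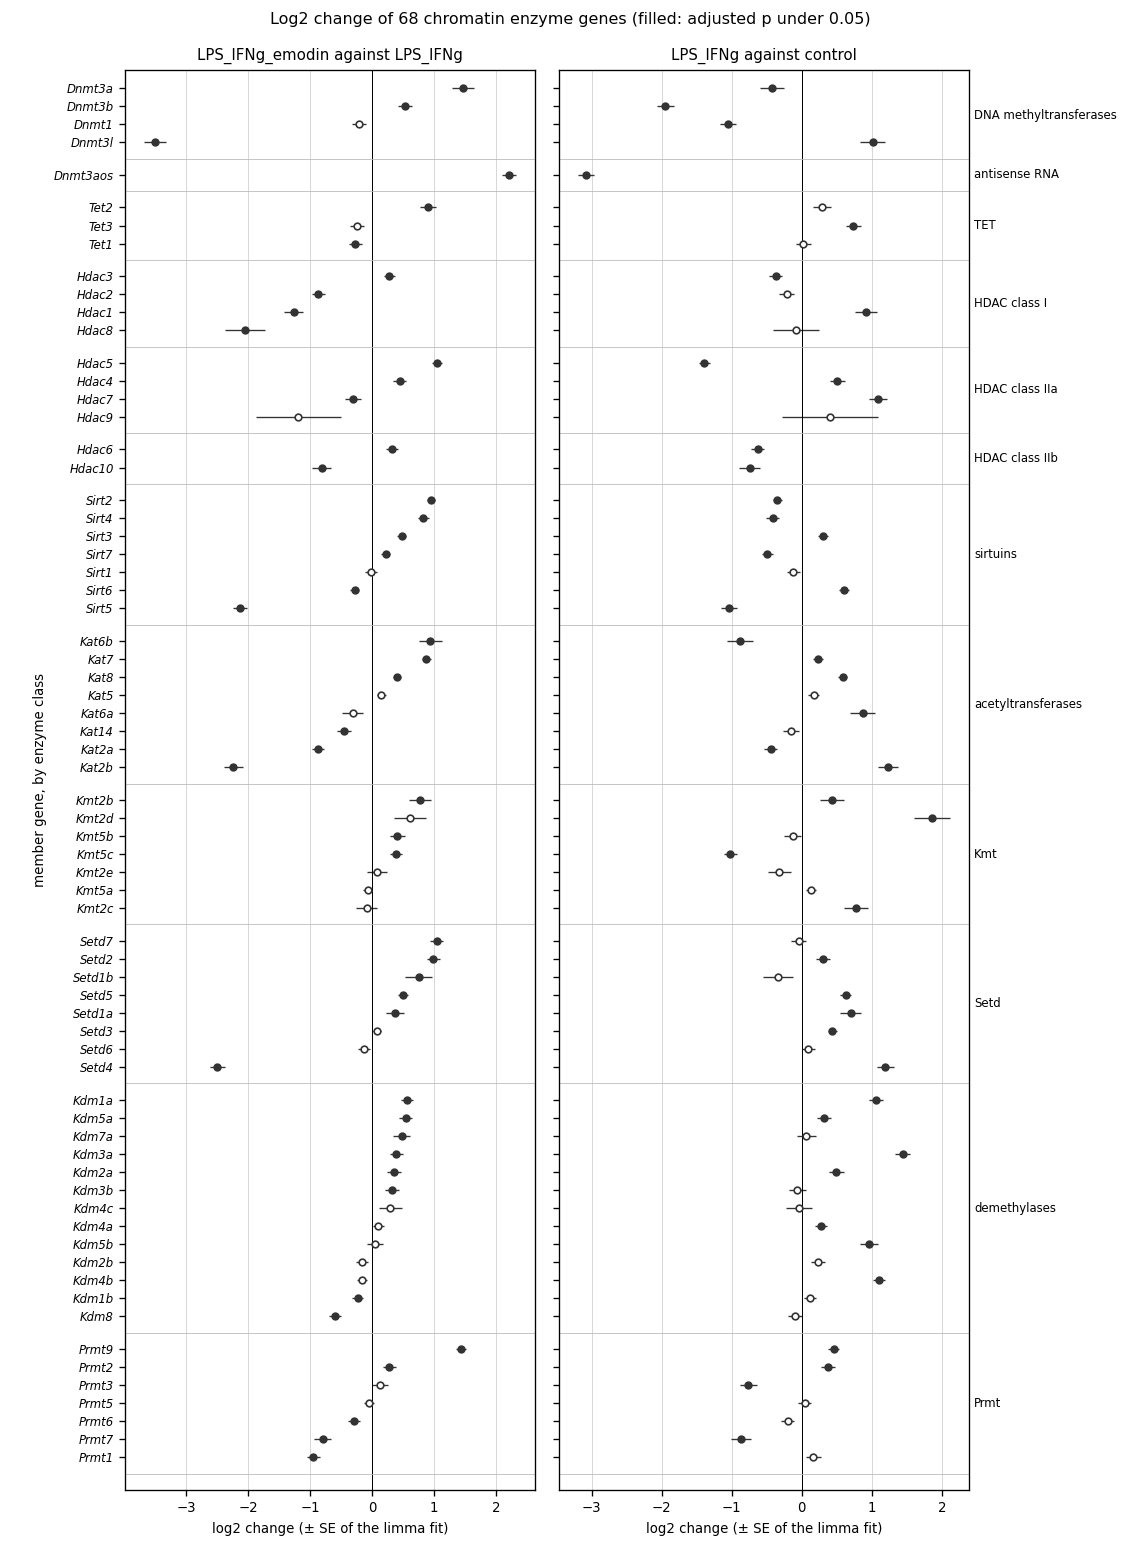
Log2 change (x axis, ± SE of the limma fit) of each of the 68 members, grouped by enzyme class down the page, in LPS_IFNg_emodin against LPS_IFNg (left) and LPS_IFNg against control (right); filled points have an adjusted p under 0.05. Dnmt3l at -3.50 and Dnmt3aos at 2.21 are the ends of the left panel, and Dnmt3aos at -3.08 and Kmt2d at 1.86 the ends of the right panel.

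Among the 4 DNA methyltransferases, Dnmt3a and Dnmt3b rose and Dnmt3l fell with emodin, and Dnmt1, Dnmt3a and Dnmt3b fell while Dnmt3l rose with LPS and IFNg. Dnmt3a and Dnmt3b place new methyl groups, Dnmt3l is a partner of both that has no catalytic activity of its own, and Dnmt1 copies methylation to the new strand after replication. The 300 bases around the most upstream listed start of Dnmt3a, of its opposite-strand RNA Dnmt3aos and of Dnmt3l (250 before and 50 after the start, RefSeq, GRCm38.p6) are shown because these 3 changed at least 2-fold with emodin, with each CG dinucleotide, the target of these enzymes, in capitals. They lie at chr12:3806730-3807029 on the plus strand, chr12:3862195-3862494 on the minus strand and chr10:78042037-78042336 on the plus strand, and hold 46, 2 and 6 CG dinucleotides.
Dnmt3a: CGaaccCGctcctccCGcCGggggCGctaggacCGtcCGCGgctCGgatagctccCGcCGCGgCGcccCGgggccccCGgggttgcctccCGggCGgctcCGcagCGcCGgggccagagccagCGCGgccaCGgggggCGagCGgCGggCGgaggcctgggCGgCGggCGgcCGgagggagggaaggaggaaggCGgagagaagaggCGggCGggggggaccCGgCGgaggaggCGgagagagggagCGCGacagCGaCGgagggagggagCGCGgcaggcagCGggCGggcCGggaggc
Dnmt3aos: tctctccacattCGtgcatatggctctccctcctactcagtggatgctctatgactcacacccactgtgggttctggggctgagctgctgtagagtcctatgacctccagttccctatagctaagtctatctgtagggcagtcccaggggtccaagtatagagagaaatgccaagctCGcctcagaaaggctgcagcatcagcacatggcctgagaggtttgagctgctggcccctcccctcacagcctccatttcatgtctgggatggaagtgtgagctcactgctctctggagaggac
Dnmt3l: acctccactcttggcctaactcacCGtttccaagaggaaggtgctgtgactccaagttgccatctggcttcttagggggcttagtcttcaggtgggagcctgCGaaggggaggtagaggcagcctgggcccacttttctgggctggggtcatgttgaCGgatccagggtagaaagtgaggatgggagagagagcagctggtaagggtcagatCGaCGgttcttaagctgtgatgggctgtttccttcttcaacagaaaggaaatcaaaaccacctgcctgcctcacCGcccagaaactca

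The start of Dnmt3aos lies inside the Dnmt3a gene on the other strand. Over 83 promoters listed for 57 members the median count of CG was 20, from 0 to 65, and over all 32851 promoters of the same length it was 7. The letters ACGTG, a core bound by hypoxia-inducible factors, stood on either strand in 24.1% of the members' promoters and 19.6% of all promoters, and TTCNNNGAA, the gamma-activated site bound by STAT factors, in 8.43% and 8.3%. Neither motif contains the other. GC content was unequal as well, with a median of 61.3% in the members' promoters and 52.7% in all. The members had to be above background to be tested, while the 32851 promoters belong to 27025 genes, tested or not. Promoters of the tested genes alone were not read, so these values do not set the members apart from other detected genes.

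Dnmt3l had -2.45, -2.76, -2.34 and -2.91 on LPS_IFNg_emodin arrays, 0.51, 1.08, 1.17 and 0.78 on LPS_IFNg arrays, and 0.085, 0.094, -0.36 and -0.35 on control arrays. Its LPS_IFNg_emodin arrays were all below those of both other groups, with no overlap between any of the 3 groups. It fell by 3.50 ± 0.18 (adjusted p = 1.26e-08) with emodin, which is 11.3-fold lower, and rose by 1.02 ± 0.18 (adjusted p = 0.000298) with LPS and IFNg. Dnmt3a had 3.94, 4.26, 4.54 and 4.06 on LPS_IFNg_emodin arrays, 2.42, 2.90, 3.04 and 2.56 on LPS_IFNg arrays, and 3.06, 2.98, 3.1 and 3.50 on control arrays, with every LPS_IFNg_emodin array above every other array. It rose by 1.47 ± 0.17 (adjusted p = 1.07e-05) with emodin and fell by 0.43 ± 0.17 (adjusted p = 0.0427) with LPS and IFNg, where arrays overlapped. The second call was lost without any one of LPS_IFNg_emodin replicates 2 or 4, LPS_IFNg replicates 1 or 4 or control replicates 1, 3 or 4 (-0.46 to -0.32, adjusted p from 0.05 to 0.123). Dnmt3aos had 1.56, 1.57, 1.75 and 1.53 on LPS_IFNg_emodin arrays, -0.77, -0.61, -0.29 and -0.77 on LPS_IFNg arrays, and 2.57, 2.58, 2.44 and 2.31 on control arrays, again with no overlap between any groups. It rose by 2.21 ± 0.11 (adjusted p = 1.18e-08) with emodin, 4.64-fold higher, and fell by 3.08 ± 0.11 (adjusted p = 4.31e-10) with LPS and IFNg, 8.48-fold lower. It was at -0.87 ± 0.11 in LPS_IFNg_emodin against control. Dnmt3b had -2.39, -2.05, -2.04 and -1.83 on LPS_IFNg_emodin arrays, -2.77, -2.53, -2.47 and -2.65 on LPS_IFNg arrays, and -0.79, -0.60, -0.73 and -0.51 on control arrays. Its 3 probes gave 0.53, 0.35 and 0.45 with emodin, and the one used rose by 0.53 ± 0.12 (adjusted p = 0.00157) with emodin and fell by 1.95 ± 0.12 (adjusted p = 3e-08) with LPS and IFNg, with no overlap in either. Dnmt1 had 0.51, 0.21, 0.32 and 0.31 on LPS_IFNg_emodin arrays, 0.33, 0.59, 0.73 and 0.53 on LPS_IFNg arrays, and 1.47, 1.41, 1.73 and 1.80 on control arrays, with control arrays above all others. It fell by 1.06 ± 0.11 (adjusted p = 4.67e-06) with LPS and IFNg and differed by -0.21 ± 0.11 with no call (adjusted p = 0.111) with emodin. There a call appeared without LPS_IFNg replicate 1 (-0.28, adjusted p = 0.0433). Scaled to the spike-ins, the change with emodin was 0.80 for Dnmt3a, 1.55 for Dnmt3aos, -4.16 for Dnmt3l and -0.13 for Dnmt3b, the last with no call.

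**Figure D2:**
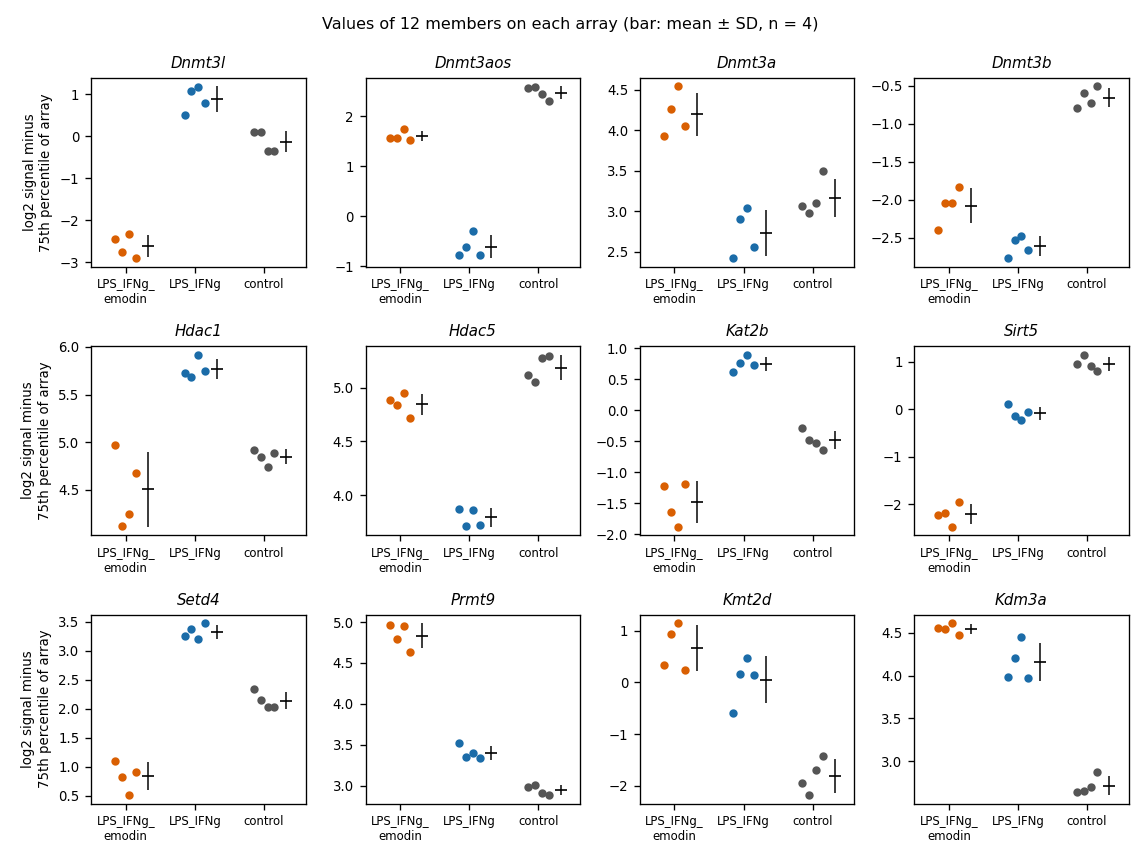
Log2 signal relative to the array's 75th percentile (y axis) for 12 members on each of the 4 arrays of LPS_IFNg_emodin, LPS_IFNg and control, with the mean ± SD (n = 4) beside each group. Dnmt3l lies no higher than -2.34 in LPS_IFNg_emodin and no lower than 0.51 in LPS_IFNg, and Dnmt3aos lies at or below -0.29 on LPS_IFNg arrays and at or above 1.53 on the others.

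Among the TET enzymes, which oxidise methylcytosine as the first step of its removal, Tet2 rose and Tet1 fell with emodin, and Tet3 rose with LPS and IFNg. Tet2, known in mouse macrophages for limiting Il6, had 2.34, 2.17, 2.38 and 2.21 on LPS_IFNg_emodin arrays, 1.18, 1.40, 1.68 and 1.23 on LPS_IFNg arrays, and 0.91, 0.91, 1.16 and 1.35 on control arrays. It rose by 0.90 ± 0.13 (adjusted p = 5.56e-05) with emodin with no overlap, and its second probe gave 0.92. Tet3 had -0.38, -0.59, -0.77 and -0.60 on LPS_IFNg_emodin arrays, -0.20, -0.56, -0.31 and -0.32 on LPS_IFNg arrays, and -1.23, -0.92, -1.23 and -0.96 on control arrays. It rose by 0.74 ± 0.11 (adjusted p = 8.7e-05) with LPS and IFNg, with no overlap of arrays, and differed by -0.24 ± 0.11 with no call (adjusted p = 0.071) with emodin. Its second probe, however, gave 2.85 with emodin, so the direction for Tet3 depends on the probe, and the mean of both gave no call in LPS_IFNg against control (0.22, adjusted p = 0.109). Tet1 fell by 0.27 ± 0.11 (adjusted p = 0.042) with emodin. That call was lost without any one of LPS_IFNg_emodin replicates 1, 2 or 4, LPS_IFNg replicates 1 or 4 or control replicate 1 (-0.27 to -0.20, adjusted p from 0.0516 to 0.122), and also with the replicate number as a block (adjusted p = 0.0616).

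Of the 4 class I histone deacetylases, Hdac1, Hdac2 and Hdac3 sit in the large nuclear co-repressor complexes. With emodin 1 of the 4 rose and 3 fell (background 35.1% and 36.8%). Hdac1, a catalytic subunit of the Sin3, NuRD and CoREST complexes, had 4.97, 4.12, 4.25 and 4.68 on LPS_IFNg_emodin arrays, 5.73, 5.69, 5.92 and 5.75 on LPS_IFNg arrays, and 4.92, 4.84, 4.74 and 4.89 on control arrays. LPS_IFNg arrays were above all others, and LPS_IFNg_emodin and control arrays overlapped. It fell by 1.26 ± 0.16 (adjusted p = 1.68e-05) with emodin and rose by 0.92 ± 0.16 (adjusted p = 0.00023) with LPS and IFNg. The other 2 probes of Hdac1 gave -1.19 and -1.17 with emodin. With LPS and IFNg they gave 0.52 and, with no call, 0.13 (adjusted p = 0.494 over all kept probes). In LPS_IFNg_emodin against control they gave -0.67 and -1.04, both called, where the probe used differed by -0.34 ± 0.16 with no call (adjusted p = 0.0643). Hdac2, its close paralog, had -3.18, -3.34, -3.37 and -3.07 on LPS_IFNg_emodin arrays, -2.27, -2.38, -2.52 and -2.33 on LPS_IFNg arrays, and -1.97, -2.03, -2.40 and -2.24 on control arrays, and its LPS_IFNg_emodin arrays lay below all others. It fell by 0.87 ± 0.11 (adjusted p = 1.6e-05) with emodin, a value that was -0.21 with no call after normexp background correction (adjusted p = 0.05). Hdac8, which deacetylates the cohesin subunit Smc3, had -2.70, -3.04, -3.63 and -2.68 on LPS_IFNg_emodin arrays, -1.42, -1.10, -0.063 and -1.29 on LPS_IFNg arrays, and -0.85, -0.26, -1.12 and -1.31 on control arrays. It fell by 2.05 ± 0.32 (adjusted p = 0.000127) with emodin with no overlap, and its second probe gave -0.78. Hdac3, the enzyme of the NCoR and SMRT complexes, had 0.44, 0.35, 0.50 and 0.67 on LPS_IFNg_emodin arrays, 0.25, 0.25, 0.26 and 0.093 on LPS_IFNg arrays, and 0.63, 0.72, 0.62 and 0.39 on control arrays. It rose by 0.28 ± 0.091 (adjusted p = 0.0165) with emodin, with no overlap of arrays, and fell by 0.37 ± 0.091 (adjusted p = 0.00302) with LPS and IFNg, and the first call was lost without any one of LPS_IFNg_emodin replicate 4 or LPS_IFNg replicate 4 (0.22 to 0.24, adjusted p from 0.0517 to 0.0531).

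Class IIa deacetylases shuttle between nucleus and cytoplasm and bind MEF2 factors. Of the 4, 2 rose and 1 fell with emodin (background 35.1% and 36.8%), and 2 rose and 1 fell with LPS and IFNg (background 33.8% and 35.2%). Hdac5 had 4.88, 4.83, 4.95 and 4.72 on LPS_IFNg_emodin arrays, 3.87, 3.71, 3.86 and 3.73 on LPS_IFNg arrays, and 5.12, 5.05, 5.27 and 5.30 on control arrays, and its LPS_IFNg arrays were below all others. It rose by 1.05 ± 0.080 (adjusted p = 2.89e-07) with emodin and fell by 1.39 ± 0.080 (adjusted p = 2e-08) with LPS and IFNg, and with spike-in scaling it was still called higher with emodin at 0.39. Hdac7, known for its roles in endothelial cells and thymocytes, had 3.06, 3.04, 3.01 and 2.93 on LPS_IFNg_emodin arrays, 3.09, 3.43, 3.53 and 3.22 on LPS_IFNg arrays, and 1.99, 2.08, 2.31 and 2.53 on control arrays. It rose by 1.09 ± 0.12 (adjusted p = 8.61e-06) with LPS and IFNg with control arrays below all others. It fell by 0.31 ± 0.12 (adjusted p = 0.0427) with emodin. This call was lost without any one of LPS_IFNg_emodin replicates 1, 2, 3 or 4, LPS_IFNg replicates 2 or 3 or control replicate 3 (-0.32 to -0.24, adjusted p from 0.0517 to 0.123) and with the replicate number as a block over all arrays (adjusted p = 0.0519). Hdac4 had 0.20, 0.25, 0.32 and 0.39 on LPS_IFNg_emodin arrays, -0.44, 0.017, -0.055 and -0.16 on LPS_IFNg arrays, and -0.76, -0.76, -0.67 and -0.46 on control arrays, an ordered set with no overlap between groups. It rose by 0.45 ± 0.10 (adjusted p = 0.00221) with emodin and rose by 0.51 ± 0.10 (adjusted p = 0.00104) with LPS and IFNg. Hdac9, not well above background on most stimulated arrays, differed by -1.19 ± 0.69 with no call (adjusted p = 0.139) with emodin. It differed by 0.40 ± 0.69 with no call (adjusted p = 0.621) with LPS and IFNg, where its second probe was above background on all 4 control arrays and on no stimulated array. That probe was at least 1.63-fold lower in LPS_IFNg than in control (adjusted p = 6.25e-07 over all kept probes). In class IIb, Hdac6 rose and Hdac10 fell with emodin, and both fell with LPS and IFNg. Hdac10, a polyamine deacetylase, had -0.087, 0.53, 0.44 and 0.36 on LPS_IFNg_emodin arrays, 0.80, 1.44, 1.22 and 1.04 on LPS_IFNg arrays, and 1.83, 1.80, 1.98 and 1.87 on control arrays. It fell by 0.81 ± 0.15 (adjusted p = 0.000417) with emodin and fell by 0.75 ± 0.15 (adjusted p = 0.000839) with LPS and IFNg, with no overlap of arrays in either comparison, and both of its probes gave the same directions. Hdac6, the tubulin deacetylase, had 1.61, 1.62, 1.46 and 1.56 on LPS_IFNg_emodin arrays, 1.19, 1.36, 1.15 and 1.27 on LPS_IFNg arrays, and 1.81, 1.72, 1.83 and 2.13 on control arrays. It rose by 0.32 ± 0.092 (adjusted p = 0.00789) with emodin and fell by 0.63 ± 0.092 (adjusted p = 6.87e-05) with LPS and IFNg, with no overlap of arrays in either comparison. Of the 10 deacetylases of classes I, IIa and IIb, Hdac5 was the only one called higher with emodin under spike-in scaling, and 7 were called lower (background 9.13% and 64.7%).

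Of 7 sirtuins, which depend on NAD, 4 rose and 2 fell with emodin (background 35.1% and 36.8%), and 2 rose and 4 fell with LPS and IFNg (background 33.8% and 35.2%). Sirt5, a mitochondrial enzyme that removes succinyl and malonyl groups, had -2.24, -2.19, -2.47 and -1.95 on LPS_IFNg_emodin arrays, 0.10, -0.13, -0.22 and -0.061 on LPS_IFNg arrays, and 0.95, 1.15, 0.91 and 0.82 on control arrays. The 3 groups did not overlap. It fell by 2.13 ± 0.12 (adjusted p = 2.09e-08) with emodin, 4.38-fold lower, fell by 1.04 ± 0.12 (adjusted p = 7.49e-06) with LPS and IFNg and fell by 3.17 ± 0.12 (adjusted p = 2.82e-10) in LPS_IFNg_emodin against control, 9-fold lower. Sirt2, mainly cytoplasmic and active on tubulin, had 5.76, 5.72, 5.74 and 5.87 on LPS_IFNg_emodin arrays, 4.77, 4.79, 4.91 and 4.79 on LPS_IFNg arrays, and 5.21, 5.18, 5.19 and 5.09 on control arrays. It rose by 0.96 ± 0.062 (adjusted p = 7.73e-08) with emodin and fell by 0.35 ± 0.062 (adjusted p = 0.000323) with LPS and IFNg, with no overlap of arrays in either comparison. Sirt4, another mitochondrial member, had 0.34, 0.37, 0.41 and 0.26 on LPS_IFNg_emodin arrays, -0.73, -0.41, -0.37 and -0.41 on LPS_IFNg arrays, and -0.15, -0.13, 0.0058 and 0.020 on control arrays, with LPS_IFNg arrays below all others. It rose by 0.83 ± 0.088 (adjusted p = 4.71e-06) with emodin and fell by 0.42 ± 0.088 (adjusted p = 0.00117) with LPS and IFNg. Sirt6, a nuclear deacetylase of histone H3, had 2.11, 2.24, 2.02 and 2.03 on LPS_IFNg_emodin arrays, 2.41, 2.42, 2.30 and 2.41 on LPS_IFNg arrays, and 1.76, 1.72, 1.77 and 1.89 on control arrays. It fell by 0.28 ± 0.070 (adjusted p = 0.00324) with emodin and rose by 0.60 ± 0.070 (adjusted p = 1.02e-05) with LPS and IFNg, with no overlap of arrays in either comparison, and its second probe gave 0.021 with emodin, with no call for the mean of its kept probes (-0.17, adjusted p = 0.0805). Sirt7, which is enriched in the nucleolus, had 5.10, 5.32, 5.33 and 5.06 on LPS_IFNg_emodin arrays, 4.98, 4.97, 5.0 and 4.97 on LPS_IFNg arrays, and 5.54, 5.43, 5.47 and 5.46 on control arrays. It fell by 0.49 ± 0.073 (adjusted p = 8.02e-05) with LPS and IFNg, with no overlap of arrays, and rose by 0.22 ± 0.073 (adjusted p = 0.0172) with emodin, a call lost without any one of LPS_IFNg_emodin replicates 2 or 3 (0.18, adjusted p from 0.0519 to 0.0558). Sirt3, the main mitochondrial deacetylase, rose by 0.48 ± 0.074 (adjusted p = 9.87e-05) with emodin and rose by 0.31 ± 0.074 (adjusted p = 0.00285) with LPS and IFNg. Sirt1, the best studied nuclear sirtuin, differed by -0.022 ± 0.10 with no call (adjusted p = 0.845) with emodin. None of the 7 was called higher with emodin under spike-in scaling and 4 were called lower (background 9.13% and 64.7%), with Sirt2 at 0.29 (adjusted p = 0.0731) and Sirt4 at 0.16 (adjusted p = 0.364).

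Of 8 lysine acetyltransferases, 3 rose and 3 fell with emodin (background 35.1% and 36.8%), and 4 rose and 2 fell with LPS and IFNg (background 33.8% and 35.2%). Kat2b and Kat2a, also called PCAF and GCN5, are alternative catalytic subunits of the SAGA and ATAC co-activator complexes. Kat2b had -1.22, -1.65, -1.88 and -1.19 on LPS_IFNg_emodin arrays, 0.61, 0.77, 0.90 and 0.73 on LPS_IFNg arrays, and -0.29, -0.48, -0.53 and -0.64 on control arrays, with no overlap between any groups. It fell by 2.23 ± 0.15 (adjusted p = 8.82e-08) with emodin, 4.7-fold lower, and rose by 1.23 ± 0.15 (adjusted p = 1.28e-05) with LPS and IFNg. Kat2a had -0.037, 0.24, 0.19 and 0.19 on LPS_IFNg_emodin arrays, 0.88, 1.22, 0.87 and 1.10 on LPS_IFNg arrays, and 1.48, 1.37, 1.43 and 1.57 on control arrays. It fell by 0.87 ± 0.10 (adjusted p = 5.79e-06) with emodin and fell by 0.45 ± 0.10 (adjusted p = 0.00129) with LPS and IFNg, with no overlap of arrays in either comparison. The paralogs shared a direction with emodin and had opposite ones with LPS and IFNg, each by its own call. Kat6a and Kat6b, also called MOZ and MORF, acetylate histone H3. Kat6b had -1.95, -1.16, -1.20 and -1.40 on LPS_IFNg_emodin arrays, -2.67, -2.36, -2.24 and -2.21 on LPS_IFNg arrays, and -1.71, -1.72, -1.37 and -1.15 on control arrays. It rose by 0.94 ± 0.19 (adjusted p = 0.000769) with emodin and fell by 0.88 ± 0.19 (adjusted p = 0.0013) with LPS and IFNg, with no overlap of arrays in either comparison. Kat6a had 2.33, 2.70, 2.72 and 2.51 on LPS_IFNg_emodin arrays, 2.45, 3.02, 3.17 and 2.88 on LPS_IFNg arrays, and 1.82, 1.75, 2.12 and 2.36 on control arrays. It rose by 0.87 ± 0.17 (adjusted p = 0.00076) with LPS and IFNg, with no overlap of arrays, and differed by -0.31 ± 0.17 with no call (adjusted p = 0.122) with emodin. A call appeared there without LPS_IFNg replicate 1 (-0.46, adjusted p = 0.0211) and with the replicate number as a block over the 8 arrays compared (adjusted p = 0.0145). Kat7, the HBO1 enzyme of replication origins, rose by 0.87 ± 0.074 (adjusted p = 7.14e-07) with emodin and Kat8, the MOF enzyme of histone H4, rose by 0.40 ± 0.062 (adjusted p = 9.93e-05). Both also rose with LPS and IFNg, by 0.23 ± 0.074 and 0.58 ± 0.062, the first not called with quantile scaling (0.079, adjusted p = 0.409). Kat14, a subunit of the ATAC complex, fell by 0.45 ± 0.11 (adjusted p = 0.00391) with emodin, a call lost with the mean of its probes (-0.22, adjusted p = 0.0587), and Kat5, or Tip60, differed by 0.15 ± 0.076 with no call (adjusted p = 0.0991). With spike-in scaling none of the 8 was called higher and 5 were called lower (background 9.13% and 64.7%).

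Of 7 lysine methyltransferases named Kmt, 3 rose and none fell with emodin (background 35.1% and 36.8%), and 3 rose and 1 fell with LPS and IFNg (background 33.8% and 35.2%). Kmt2d, which methylates histone H3 at enhancers, had 0.33, 0.93, 1.15 and 0.23 on LPS_IFNg_emodin arrays, -0.59, 0.17, 0.47 and 0.15 on LPS_IFNg arrays, and -1.95, -2.18, -1.69 and -1.43 on control arrays. Control arrays were below all others, and LPS_IFNg_emodin and LPS_IFNg arrays overlapped. It rose by 1.86 ± 0.26 (adjusted p = 5.04e-05) with LPS and IFNg, 3.63-fold higher, and differed by 0.61 ± 0.26 with no call (adjusted p = 0.0537) with emodin. That difference was called without any one of LPS_IFNg_emodin replicates 1 or 4 or LPS_IFNg replicate 3 (0.72 to 0.75, adjusted p from 0.029 to 0.0404) and with the replicate number as a block over all arrays (adjusted p = 0.0318). Kmt2c, its paralog at enhancers, had 1.91, 1.89, 2.19 and 1.72 on LPS_IFNg_emodin arrays, 1.72, 2.05, 2.36 and 1.92 on LPS_IFNg arrays, and 1.00, 1.00, 1.29 and 1.65 on control arrays. It rose by 0.78 ± 0.17 (adjusted p = 0.00157) with LPS and IFNg, with no overlap of arrays, and differed by -0.087 ± 0.17 with no call (adjusted p = 0.662) with emodin. Kmt2b, which acts at promoters, had 2.29, 2.67, 2.76 and 2.56 on LPS_IFNg_emodin arrays, 1.45, 1.88, 2.09 and 1.77 on LPS_IFNg arrays, and 1.22, 1.01, 1.51 and 1.73 on control arrays. It rose by 0.77 ± 0.17 (adjusted p = 0.00179) with emodin with no overlap, and rose by 0.43 ± 0.17 (adjusted p = 0.044) with LPS and IFNg, a call lost without any one of LPS_IFNg_emodin replicates 2 or 4, LPS_IFNg replicates 2, 3 or 4 or control replicates 1 or 2 (0.31 to 0.44, adjusted p from 0.0536 to 0.132). Kmt5c, which adds the later methyl groups to histone H4 in heterochromatin, had 3.67, 3.37, 3.40 and 3.27 on LPS_IFNg_emodin arrays, 3.24, 2.94, 3.04 and 2.94 on LPS_IFNg arrays, and 3.99, 3.99, 4.13 and 4.13 on control arrays. It rose by 0.39 ± 0.10 (adjusted p = 0.00346) with emodin and fell by 1.02 ± 0.10 (adjusted p = 1.84e-06) with LPS and IFNg, with no overlap of arrays in either comparison. Its paralog Kmt5b rose by 0.41 ± 0.13 (adjusted p = 0.0116) with emodin, with 1 of its 3 probes at -0.081, and the call was lost after normexp background correction. Kmt5a, which adds the first methyl group to histone H4, differed by -0.071 ± 0.070 with no call (adjusted p = 0.376) with emodin by the probe used, while its second probe gave 0.88. Kmt2e, known as a reader of methylated histone H3, differed by 0.075 ± 0.16 with no call (adjusted p = 0.69). With spike-in scaling none of the 7 was called higher with emodin and 4 were called lower (background 9.13% and 64.7%).

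Of the 8 SET domain proteins named Setd, 5 rose and 1 fell with emodin (background 35.1% and 36.8%), and 5 rose with LPS and IFNg (background 33.8%). Setd4 had 1.10, 0.83, 0.51 and 0.91 on LPS_IFNg_emodin arrays, 3.26, 3.38, 3.21 and 3.48 on LPS_IFNg arrays, and 2.35, 2.16, 2.03 and 2.03 on control arrays. The 3 groups did not overlap. It fell by 2.49 ± 0.12 (adjusted p = 1.01e-08) with emodin, 5.63-fold lower, and rose by 1.19 ± 0.12 (adjusted p = 3.65e-06) with LPS and IFNg. Setd7, which adds 1 methyl group to histone H3 and to several transcription factors, had 2.97, 2.92, 2.98 and 3.03 on LPS_IFNg_emodin arrays, 1.88, 1.91, 1.96 and 1.98 on LPS_IFNg arrays, and 1.78, 1.77, 2.18 and 2.20 on control arrays, with LPS_IFNg_emodin arrays above all others. It rose by 1.04 ± 0.10 (adjusted p = 2.52e-06) with emodin and differed by -0.047 ± 0.10 with no call (adjusted p = 0.699) with LPS and IFNg. Setd2, which methylates histone H3 along transcribed genes, had 3.94, 4.06, 4.10 and 3.86 on LPS_IFNg_emodin arrays, 2.83, 3.03, 3.16 and 2.98 on LPS_IFNg arrays, and 2.61, 2.53, 2.70 and 2.94 on control arrays. It rose by 0.99 ± 0.10 (adjusted p = 3.83e-06) with emodin, with no overlap of arrays, and rose by 0.30 ± 0.10 (adjusted p = 0.0204) with LPS and IFNg, a call lost without any one of LPS_IFNg replicate 3 or control replicates 1 or 2 (0.25 to 0.27, adjusted p from 0.0547 to 0.0628). Setd5 had 3.90, 3.94, 3.93 and 3.66 on LPS_IFNg_emodin arrays, 3.31, 3.31, 3.48 and 3.33 on LPS_IFNg arrays, and 2.73, 2.61, 2.75 and 2.84 on control arrays. It rose by 0.50 ± 0.082 (adjusted p = 0.000174) with emodin and rose by 0.63 ± 0.082 (adjusted p = 2.84e-05) with LPS and IFNg, with no overlap of arrays in either comparison. Setd1a and Setd1b are the catalytic subunits of the complexes that methylate histone H3 at active promoters. Setd1a had 2.46, 2.79, 2.84 and 2.82 on LPS_IFNg_emodin arrays, 2.05, 2.45, 2.53 and 2.41 on LPS_IFNg arrays, and 1.52, 1.38, 1.76 and 2.00 on control arrays. It rose by 0.70 ± 0.15 (adjusted p = 0.00128) with LPS and IFNg, with no overlap of arrays, and rose by 0.37 ± 0.15 (adjusted p = 0.0436) with emodin, a call lost without any one of LPS_IFNg_emodin replicates 2, 3 or 4, LPS_IFNg replicates 1, 2 or 4 or control replicate 3 (0.26 to 0.40, adjusted p from 0.0524 to 0.128). Setd1b rose by 0.75 ± 0.21 (adjusted p = 0.0075) with emodin. Setd3, an actin methyltransferase, rose by 0.44 ± 0.065 (adjusted p = 8.61e-05) with LPS and IFNg, and Setd6, known in human cells to methylate the NF-kB subunit RelA, differed by 0.095 ± 0.10 with no call (adjusted p = 0.404). With spike-in scaling Setd7 was called higher with emodin, at 0.38, and 3 of the 8 were called lower (background 9.13% and 64.7%).

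By the probes used, no member of the 13 lysine demethylases changed at least 2-fold with emodin (background 26.5%), and 3 rose at least 2-fold with LPS and IFNg (background 14.2%). At any size, 6 rose and 2 fell with emodin (background 35.1% and 36.8%), and 7 rose and none fell with LPS and IFNg (background 33.8% and 35.2%). Kdm3a, a demethylase of histone H3 whose own gene is induced by hypoxia, had 4.56, 4.55, 4.61 and 4.47 on LPS_IFNg_emodin arrays, 3.99, 4.20, 4.45 and 3.98 on LPS_IFNg arrays, and 2.64, 2.65, 2.69 and 2.88 on control arrays, with control arrays below all others. It rose by 1.44 ± 0.10 (adjusted p = 1.6e-07) with LPS and IFNg, 2.71-fold higher, and rose by 0.39 ± 0.10 (adjusted p = 0.00517) with emodin. Kdm4b, a demethylase of the same Jumonji family, had 2.89, 2.82, 2.86 and 2.89 on LPS_IFNg_emodin arrays, 3.00, 2.97, 3.23 and 2.90 on LPS_IFNg arrays, and 1.94, 1.77, 1.90 and 2.07 on control arrays. It rose by 1.11 ± 0.084 (adjusted p = 2.37e-07) with LPS and IFNg, with no overlap of arrays, and differed by -0.16 ± 0.084 with no call (adjusted p = 0.104) with emodin. Kdm1a, the flavin-dependent demethylase LSD1 of the CoREST complex, had 4.62, 4.78, 4.73 and 4.52 on LPS_IFNg_emodin arrays, 3.97, 4.13, 4.32 and 3.98 on LPS_IFNg arrays, and 2.96, 2.95, 3.19 and 3.07 on control arrays. It rose by 0.56 ± 0.10 (adjusted p = 0.000231) with emodin and rose by 1.06 ± 0.10 (adjusted p = 1.2e-06) with LPS and IFNg, with no overlap between any groups. Kdm5a and Kdm5b remove methylation from histone H3 at promoters. Kdm5a had 2.55, 2.59, 2.51 and 2.43 on LPS_IFNg_emodin arrays, 1.87, 2.04, 2.07 and 1.92 on LPS_IFNg arrays, and 1.59, 1.47, 1.59 and 1.99 on control arrays. It rose by 0.54 ± 0.10 (adjusted p = 0.000551) with emodin, with no overlap of arrays, and rose by 0.32 ± 0.10 (adjusted p = 0.0164) with LPS and IFNg, the second call being lost without control replicate 2 (0.26, adjusted p = 0.0517). Kdm5b rose by 0.96 ± 0.13 (adjusted p = 3.21e-05) with LPS and IFNg, and its 2 probes gave 0.042 and -0.72 with emodin. Kdm8 had -0.46, -0.48, -0.32 and -0.71 on LPS_IFNg_emodin arrays, -0.0061, 0.21, 0.16 and 0.047 on LPS_IFNg arrays, and 0.41, 0.23, 0.085 and 0.10 on control arrays, with LPS_IFNg_emodin arrays below all others. It fell by 0.59 ± 0.10 (adjusted p = 0.000207) with emodin. Of the rest, Kdm2a, Kdm3b and Kdm7a also rose with emodin, by 0.35 ± 0.11, 0.32 ± 0.12 and 0.48 ± 0.14, and Kdm1b, the second flavin-dependent demethylase, fell with a difference of -0.23 ± 0.082. The second probe of Kdm7a gave 0.14 with emodin, with no call (adjusted p = 0.528 over all kept probes). The Kdm3b call was lost without any one of LPS_IFNg_emodin replicates 2 or 3 or LPS_IFNg replicate 1 (0.24 to 0.31, adjusted p from 0.0568 to 0.0774). The Kdm1b call was lost without any one of LPS_IFNg_emodin replicates 1 or 4 or LPS_IFNg replicate 2 (-0.20 to -0.19, adjusted p from 0.0633 to 0.0704). Kdm4a differed by 0.10 ± 0.088 with no call (adjusted p = 0.337) with emodin by the probe used, while its second probe was well above background on all 4 LPS_IFNg_emodin arrays and on no LPS_IFNg or control array. That second probe was at least 6.96-fold higher in LPS_IFNg_emodin than in LPS_IFNg (adjusted p = 7.66e-07 over all kept probes). Kdm2b differed by -0.16 ± 0.10 with no call. Kdm4c had 1.24, 1.11, 1.13 and 1.06 on LPS_IFNg_emodin arrays, 0.74, 0.88, 1.01 and 0.73 on LPS_IFNg arrays, and 1.11, 1.13, 1.11 and 0.17 on control arrays. It differed by 0.30 ± 0.19 with no call (adjusted p = 0.172) with emodin, although its LPS_IFNg_emodin arrays lay above its LPS_IFNg arrays. The same difference was called without control replicate 4 (adjusted p = 0.00408), over the 8 arrays compared (adjusted p = 0.0105) and over those 8 with the replicate number as a block (adjusted p = 0.0215). Without control replicate 4 it was also called lower with LPS and IFNg (-0.28, adjusted p = 0.0103). With spike-in scaling none of the 13 was called higher with emodin and 7 were called lower (background 9.13% and 64.7%).

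Among the 7 arginine methyltransferases, 2 rose and 3 fell with emodin (background 35.1% and 36.8%), and 2 rose and 2 fell with LPS and IFNg (background 33.8% and 35.2%). Prmt9, which methylates a splicing factor, had 4.96, 4.80, 4.95 and 4.63 on LPS_IFNg_emodin arrays, 3.52, 3.35, 3.40 and 3.33 on LPS_IFNg arrays, and 2.98, 3.01, 2.91 and 2.89 on control arrays, with no overlap between any groups. It rose by 1.43 ± 0.082 (adjusted p = 2.84e-08) with emodin, 2.7-fold higher, and rose by 0.45 ± 0.082 (adjusted p = 0.000373) with LPS and IFNg, and was 0.77 with spike-in scaling, still called. Prmt7, which adds single methyl groups, had 1.73, 2.37, 2.34 and 2.02 on LPS_IFNg_emodin arrays, 2.92, 3.02, 2.64 and 3.06 on LPS_IFNg arrays, and 3.87, 3.73, 3.68 and 3.83 on control arrays. It fell by 0.80 ± 0.14 (adjusted p = 0.000307) with emodin and fell by 0.87 ± 0.14 (adjusted p = 0.000169) with LPS and IFNg, with no overlap of arrays in either comparison, and its second probe gave -0.051 with emodin. Prmt1, the enzyme behind most asymmetric arginine methylation in mammalian cells, had 3.58, 3.69, 3.58 and 3.64 on LPS_IFNg_emodin arrays, 4.85, 4.53, 4.36 and 4.55 on LPS_IFNg arrays, and 4.49, 4.58, 4.30 and 4.26 on control arrays. LPS_IFNg_emodin arrays were below all others. It fell by 0.95 ± 0.11 (adjusted p = 6.59e-06) with emodin and differed by 0.16 ± 0.11 with no call (adjusted p = 0.185) with LPS and IFNg. Prmt3, a cytoplasmic enzyme active on a ribosomal protein, had -0.48, -0.10, -0.084 and -0.026 on LPS_IFNg_emodin arrays, -0.16, -0.17, -0.56 and -0.30 on LPS_IFNg arrays, and 0.55, 0.64, 0.31 and 0.37 on control arrays. It fell by 0.76 ± 0.12 (adjusted p = 0.000173) with LPS and IFNg, with no overlap of arrays, and differed by 0.13 ± 0.12 with no call (adjusted p = 0.378) with emodin. Prmt2 rose by 0.28 ± 0.10 (adjusted p = 0.0304) with emodin, a call lost without any one of LPS_IFNg_emodin replicates 2 or 3 or LPS_IFNg replicates 1 or 4 (0.19 to 0.28, adjusted p from 0.0554 to 0.0927). Prmt5, the main symmetric methyltransferase, differed by -0.048 ± 0.087 with no call (adjusted p = 0.637). Prmt6 fell by 0.29 ± 0.094 (adjusted p = 0.0153) with emodin by the probe used, and a second probe rose by 0.62, so its direction depends on the probe. The remaining probe gave 0.22 with no call, and the mean of the 3 gave 0.18. Without Prmt6, 2 of the other 6 rose and 2 fell with emodin, and 17 members fell among 48 called. With spike-in scaling Prmt9 was the one member of the class called higher, and 5 were called lower (background 9.13% and 64.7%).

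**Figure D3:**
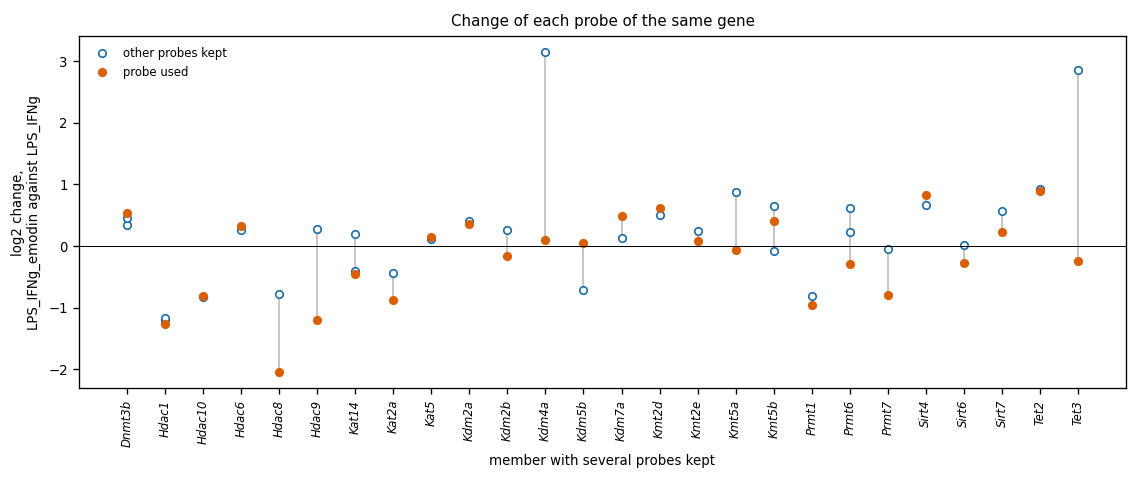
Log2 change in LPS_IFNg_emodin against LPS_IFNg (y axis) of each probe of the 26 members with several probes kept (x axis), with the probe used for the gene filled and the others open. The probes of Kdm4a lie at 0.10 and 3.14, the second too dim to be measured in LPS_IFNg, and those of Tet3 at -0.24 and 2.85, while those of Hdac1, Hdac10 and Tet2 lie close together.

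Several of the members work in complexes or use common cofactors, so 7 lists of partner genes were read on the same arrays. Of 21 tested subunits of the co-repressor complexes of Hdac1, Hdac2 and Hdac3, 12 rose and 5 fell with emodin (background 35.1% and 36.8%), and 7 rose and 6 fell with LPS and IFNg (background 33.8% and 35.2%). Rcor2, a CoREST subunit that binds Kdm1a, fell by 1.76 ± 0.38 (adjusted p = 0.00129) with emodin and rose by 2.81 ± 0.38 (adjusted p = 3.67e-05) with LPS and IFNg, being above background on 3 of 4 control arrays. Gatad2b of the NuRD complex rose by 1.42 ± 0.10 (adjusted p = 1.17e-07) with emodin, and Tbl1x of the NCoR complex rose by 1.36 ± 0.10 (adjusted p = 2.22e-07). Sap30, a Sin3 subunit, rose by 1.56 ± 0.13 (adjusted p = 5.99e-07) with LPS and IFNg and Gps2 of the NCoR complex fell by 0.85 ± 0.10 (adjusted p = 9.56e-06). The 10 COMPASS subunits tested include some common to the Kmt2 and Setd1 enzymes and others specific to particular ones. Of these, 1 rose and 4 fell with emodin (background 35.1% and 36.8%), and 3 rose and 3 fell with LPS and IFNg (background 33.8% and 35.2%). Ash2l fell by 1.37 ± 0.11 (adjusted p = 4.79e-07), Dpy30 fell by 1.33 ± 0.12 (adjusted p = 1.4e-06) and Ncoa6 rose by 0.49 ± 0.14 (adjusted p = 0.0063) with emodin. Paxip1 rose by 0.48 ± 0.068 (adjusted p = 6.04e-05), Dpy30 fell by 0.44 ± 0.12 (adjusted p = 0.0068) and Men1 rose by 0.31 ± 0.065 (adjusted p = 0.000984) with LPS and IFNg. With spike-in scaling the counts with emodin became 2 higher and 9 lower among co-repressor subunits (background 9.13% and 64.7%), and 0 higher and 9 lower among COMPASS subunits.

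Among 10 DNA methylation partners, 7 rose and 2 fell with emodin (background 35.1% and 36.8%), and 4 rose and 4 fell with LPS and IFNg (background 33.8% and 35.2%). Gadd45b, one of the stress-induced Gadd45 proteins linked to DNA demethylation, rose by 2.44 ± 0.12 (adjusted p = 1.13e-08) with emodin. Gadd45g rose by 1.44 ± 0.089 (adjusted p = 5.56e-08) and Mbd4, a DNA glycosylase that acts at methylated sites, rose by 1.27 ± 0.12 (adjusted p = 2.08e-06). With LPS and IFNg, Gadd45a fell by 2.80 ± 0.18 (adjusted p = 4.57e-08), Gadd45g fell by 2.16 ± 0.089 (adjusted p = 1.21e-09) and Mbd4 fell by 0.70 ± 0.12 (adjusted p = 0.000289). With spike-in scaling 4 of the 10 were called higher with emodin and 4 lower (background 9.13% and 64.7%). Of 17 tested histone methyltransferases outside the naming rule, 7 rose and 4 fell with emodin (background 35.1% and 36.8%), and 8 rose and 4 fell with LPS and IFNg (background 33.8% and 35.2%). Nsd2, which methylates histone H3 within genes, rose by 2.38 ± 0.094 (adjusted p = 2.08e-09) with emodin, Prdm2 rose by 1.92 ± 0.12 (adjusted p = 6.05e-08) and Smyd2 fell by 1.58 ± 0.090 (adjusted p = 2.71e-08). Ehmt1, Suv39h2 and Suv39h1 are all methyltransferases of silent chromatin. With LPS and IFNg, Ehmt1 rose by 2.58 ± 0.13 (adjusted p = 4.86e-09), Suv39h2 rose by 2.21 ± 0.088 (adjusted p = 8.55e-10) and Suv39h1 rose by 1.39 ± 0.13 (adjusted p = 1.89e-06). With spike-in scaling Nsd2 and Prdm2 were the 2 of 17 called higher with emodin, and 11 were called lower (background 9.13% and 64.7%).

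Of 11 other acetyltransferases and readers of acetylated lysine, 6 rose and 3 fell with emodin (background 35.1% and 36.8%), and 5 rose and 2 fell with LPS and IFNg (background 33.8% and 35.2%). Brd9, a SWI/SNF subunit, fell by 1.11 ± 0.12 (adjusted p = 4.18e-06), Brd3, a BET reader, rose by 1.05 ± 0.088 (adjusted p = 6.4e-07), and Ep300, the p300 co-activator, rose by 0.82 ± 0.18 (adjusted p = 0.00137) with emodin. Hat1, which acetylates newly made histone H4, rose by 1.87 ± 0.12 (adjusted p = 4.84e-08), Brd2 rose by 1.42 ± 0.069 (adjusted p = 4.85e-09) and Crebbp rose by 0.41 ± 0.073 (adjusted p = 0.000324) with LPS and IFNg. Of 7 other demethylases, 4 rose and 2 fell with emodin (background 35.1% and 36.8%), and 4 rose and 2 fell with LPS and IFNg (background 33.8% and 35.2%). With emodin, Alkbh1 rose by 1.55 ± 0.086 (adjusted p = 2.29e-08) and Riox2 fell by 1.08 ± 0.091 (adjusted p = 6.96e-07). Phf2 rose by 0.88 ± 0.14 (adjusted p = 0.000138) with emodin. Jmjd6 rose by 1.89 ± 0.085 (adjusted p = 2.37e-09), Rsbn1 rose by 0.84 ± 0.092 (adjusted p = 6.03e-06) and Riox2 rose by 0.80 ± 0.091 (adjusted p = 8.99e-06) with LPS and IFNg. With spike-in scaling 1 of the 11 and 1 of the 7 were called higher with emodin, Brd3 and Alkbh1, and 6 and 3 were called lower (background 9.13% and 64.7%).

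Of 13 genes of cofactor supply, which make or use acetyl-CoA, S-adenosylmethionine, NAD or oxoglutarate, 3 rose and 10 fell with emodin (background 35.1% and 36.8%), and 1 rose and 9 fell with LPS and IFNg (background 33.8% and 35.2%). Acly, which makes cytosolic acetyl-CoA from citrate, fell by 1.35 ± 0.083 (adjusted p = 5.17e-08) with emodin, and Nnmt, which uses S-adenosylmethionine to methylate nicotinamide, fell by 3.34 ± 0.55 (adjusted p = 0.000177), being above background on 2 of 4 LPS_IFNg_emodin arrays. With LPS and IFNg, Idh1, which makes cytosolic oxoglutarate, fell by 3.08 ± 0.12 (adjusted p = 8.84e-10), Nampt, the NAD salvage enzyme, rose by 2.95 ± 0.089 (adjusted p = 9.58e-11), and Idh2 fell by 1.24 ± 0.17 (adjusted p = 3.41e-05). With spike-in scaling none of the 13 was called higher with emodin and 11 were called lower (background 9.13% and 64.7%).

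**Figure D4:**
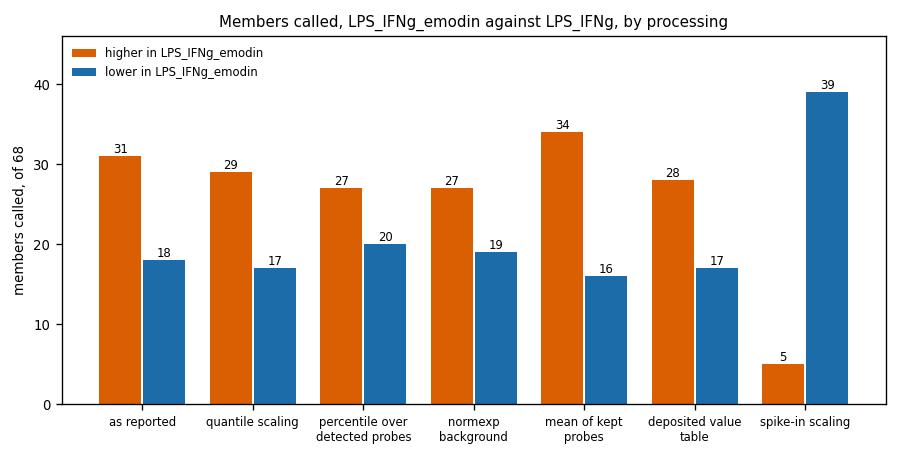
Number of the 68 members called (y axis, adjusted p under 0.05) higher or lower in LPS_IFNg_emodin against LPS_IFNg under 7 ways of processing (x axis). As reported 31 were higher and 18 lower, and the first 6 settings keep more higher than lower calls, while spike-in scaling gives 5 higher and 39 lower. Over all 13168 genes, 4617 were higher and 4840 lower as reported, and 1202 and 8524 with spike-in scaling.

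Markers of macrophages, of other cell types and of proliferation were read on the same arrays. Over all genes, 35.1% were called higher and 36.8% lower with emodin, and 33.8% and 35.2% with LPS and IFNg. Of 11 tested mesothelial and fibroblast genes none rose and 5 fell with emodin, and 3 rose and 6 fell with LPS and IFNg. Their summed level, relative to the 75th percentile, was 12.8 to 41.5 on LPS_IFNg_emodin arrays, 82.3 to 158 on LPS_IFNg arrays and 20.3 to 86.3 on control arrays. Dcn and Col1a2, the brightest, weigh most in this sum, with LPS_IFNg means of 6.27 and 5.14 and control means of 4.60 and 3.23. Msln, Krt18, Krt19 and Col3a1 had lower means in LPS_IFNg than in control, with Krt19 at -2.84 and -0.55. Pdgfra and Krt8 were not above background on any LPS_IFNg_emodin array, and Upk1b and Lrrn4 on none of either stimulated group. All 3 tested B cell genes fell with emodin, with summed levels of 0.0931 to 0.222 on LPS_IFNg_emodin arrays, 0.565 to 2.00 on LPS_IFNg arrays and 0.958 to 2.29 on control arrays. Of 11 proliferation genes 3 rose and 7 fell with emodin, with summed levels of 116 to 132 on LPS_IFNg_emodin arrays, 92.5 to 109 on LPS_IFNg arrays and 112 to 145 on control arrays. This sum is mostly Pcna, the brightest, with means of 6.83, 6.55 and 6.91 in the same order, and so does not follow the other genes of the list. Of 6 tested neutrophil genes 4 rose and 2 fell with emodin, with summed levels of 30.4 to 37.6 on LPS_IFNg_emodin arrays, 25.4 to 30.7 on LPS_IFNg arrays and 26.7 to 39.8 on control arrays, mostly from Elane and S100a8. S100a9, Mpo and Ltf were above background on no LPS_IFNg array. Of 8 tested macrophage genes 2 rose and 6 fell with emodin, with summed levels of 501 to 582, 408 to 476 and 622 to 638 on the arrays of LPS_IFNg_emodin, LPS_IFNg and control. Lyz2, with means of 8.43, 7.54 and 8.31, and Csf1r, with 6.88, 7.26 and 7.92, weigh most in that sum. Of 3 dendritic cell genes none rose and 2 fell with emodin, with summed levels of 0.206 to 0.392 on LPS_IFNg_emodin arrays, 0.503 to 0.713 on LPS_IFNg arrays and 0.164 to 0.285 on control arrays. Flt3 was above background on no LPS_IFNg_emodin array and all 4 LPS_IFNg arrays, at least 1.71-fold lower with emodin (adjusted p = 0.00372), and Zbtb46 fell by 0.89 ± 0.25 (adjusted p = 0.00771). Of 2 tested T and NK cell genes, Cd3e rose by 0.60 ± 0.10 (adjusted p = 0.000174) with emodin and Lck rose by 3.52 ± 0.19 (adjusted p = 1.21e-08) with LPS and IFNg. Cd3e was called lower with LPS and IFNg, with means of 0.66 on LPS_IFNg and 1.85 on control arrays. Lck had no call with emodin, with means of 3.14 on LPS_IFNg_emodin and 3.19 on LPS_IFNg arrays. Kit, 1 of 2 tested mast cell genes, rose by 1.29 ± 0.27 (adjusted p = 0.00115) with emodin, being above background on 2 of 4 LPS_IFNg arrays. Cpa3, the other, had means of -3.78 on LPS_IFNg_emodin and -3.17 on LPS_IFNg arrays, with no call. The part of these cell types in the changes of the members was not tested.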

How the data were processed

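Each of the 12 arrays was a separate one-colour (Cy3) hybridisation of 1 sample, and samples were grouped by their titles. Intensities of single spots stand in the deposited scanner files, and the submitters' processing notes name Agilent Feature Extraction 10.7.3.1 for them. Per the file headers, the processed signal had its background subtracted and no normalisation across arrays. The deposited value table holds log2 values that matched the quantile-normalised log2 processed signal, centred on each probe's median, so its direction follows signal. Control columns 1, 3 and 4 in it correspond to the scans of control replicates 4, 1 and 3 (r = 0.99997), and it served only as an alternative. Its column medians lay between -0.0317 and 0.0416.

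Of 62976 spots per array 59305 were not controls, and 78 to 415 outlier spots were left out per array. The log2 processed signal, averaged per probe, was set relative to the array's 75th percentile, and 27375 of 55681 probes were kept. Probe accessions were matched without versions to a RefSeq table (GRCm38.p6), used only for names because the array is annotated on mm9. Names were found for 27509 probes, and the brightest kept probe stood for its gene. Changes were tested with limma 3.58.1 in R 4.3.3 (lmFit and eBayes, all 3 groups in 1 fit, 9 residual degrees of freedom), with Benjamini-Hochberg adjustment over all 13168 genes. The script was tested on simulated data with known changes.

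No label ties a sample to an animal, so p-values here cover the spread among these samples alone. Their precision is limited by how many arrays there are. The design text of the series names another leukocyte than the tissue label, so markers of both were read. Replicates of LPS_IFNg_emodin and LPS_IFNg with the same number deviated together (r = 0.229, 0.283, 0.162 and 0.150, each highest with its own number), so numbers were taken to pair those samples in an alternative fit. Against control the numbers did not pair samples. The reported standard errors and adjusted p come from the fit without pairing. Normexp correction was planned on mean spot signals and was run on median ones, the column in the files. Alternatives were other scalings, background corrections, probe filters and probe rules, spike-in scaling, a replicate block and leaving out arrays.

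Member genes and partner lists were chosen with earlier results of these data known. Every member is named. In each class, up to 3 called members whose arrays do not overlap, by size of change per comparison, have their values printed for each array, and from each partner list up to 3 are named per comparison. One partner gene that fits this rule is not reported here.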

Additional observations from a re-analysis of the deposited data

Results flagged for a closer look

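Of 204 sets of 4 arrays (68 members in 3 groups), 11, or 5.39%, held an array that stood far from the other 3 of its group by Dixon's test, and about 1 in 20 is what chance gives. LPS_IFNg replicate 3, an array whose Xist level goes against its label, accounts for 4 of the 11. On that array Setd5 was at 3.48, Sirt2 at 4.91, Sirt6 at 2.30 and Sirt7 at 5.0 on the log2 scale, the lowest of its group for Sirt6 and the highest for the others. On LPS_IFNg_emodin replicate 1, Prmt3 was at -0.48 and Setd1a at 2.46, and on LPS_IFNg_emodin replicate 3 Dnmt3aos was at 1.75. Setd5 was at 3.66 on LPS_IFNg_emodin replicate 4. Sirt4 was at -0.73 on LPS_IFNg replicate 1 and Hdac3 at 0.093 on LPS_IFNg replicate 4. The remaining array was control replicate 4, where Kdm4c was at 0.17. The cause of these values was not tested.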

How the results depend on the processing

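Counts of called members kept within 1.5 times of the reported ones under the other scalings, background corrections, probe filters and probe rules run, except for spike-in scaling and a 2-fold minimum. Spike-in scaling gave 5 higher and 39 lower with emodin. It was not run against control, where spike-in signals differed between slides. With a 2-fold minimum there were 11 (5 higher, 6 lower) in LPS_IFNg_emodin against LPS_IFNg, 14 (8 and 6) in LPS_IFNg against control and 21 (11 and 10) in LPS_IFNg_emodin against control. Leaving out 1 array gave 43 to 50, 42 to 47 and 52 to 56 called members in the 3 comparisons, with 27 to 33, 26 to 30 and 31 to 34 higher and 16 to 19, 16 to 18 and 21 to 22 lower. Over all 13168 genes the same fits called 9068 to 9590, 8617 to 9109 and 9964 to 10340. Higher calls there were 4400 to 4688, 4206 to 4448 and 4983 to 5155. Lower calls there were 4644 to 4902, 4332 to 4682 and 4955 to 5185. With the replicate number as a block, 48 were called over all arrays and 51 over the 8 compared in LPS_IFNg_emodin against LPS_IFNg. The block gave 45 and 41 in LPS_IFNg against control and 54 and 52 in LPS_IFNg_emodin against control, where the numbers do not pair samples. Over all genes the block gave 9396 and 9599, 9004 and 8611, and 10240 and 9809 in the same order. It changed the calls of Hdac7, Tet1, Kat6a, Kdm4c and Kmt2d with emodin and of no other member in that comparison (Kdm4c adjusted p = 0.0215 over the 8 arrays). Of 13168 genes, LPS_IFNg against control had 4446 higher and 4632 lower as reported, and 3887 and 5459 with quantile scaling. With no filter on dim probes 20887 genes were tested, and 7836 were higher and 4777 lower. Quantile scaling, the deposited value table and the percentile over probes detected on all arrays turned no member's direction where it was called. The calls of Kdm4a and Prmt2 in LPS_IFNg against control were lost with quantile scaling, as were those of Kat7, Kmt2b and Setd2 there and of Hdac7, Prmt2 and Sirt7 with emodin. After normexp correction those of Dnmt3a and Kat7 in LPS_IFNg against control and of Hdac2, Hdac3, Kmt5b, Prmt2, Setd1a, Sirt7 and Tet1 with emodin were lost. Quantile scaling moved the median of all genes to -0.13 in LPS_IFNg against control, and the percentile over detected probes to -0.16 there and -0.18 in LPS_IFNg_emodin against control. The mean of the kept probes turned Hdac9 (-1.17) and Kmt5a (-0.22) in LPS_IFNg against control, Kmt5a (0.40), Kdm5b (-0.34), Prmt6 (0.18) and Tet3 (1.31) in LPS_IFNg_emodin against LPS_IFNg, and Prmt6 (0.33) in LPS_IFNg_emodin against control. By construction spike-in scaling lowers all changes with emodin by the same amount, and it turned 26 members: Dnmt3b -0.13, Hdac3 -0.39, Hdac4 -0.22, Hdac6 -0.34, Kat5 -0.52, Kat8 -0.26, Kdm1a -0.10, Kdm2a -0.31, Kdm3a -0.27, Kdm3b -0.34, Kdm4a -0.57, Kdm4c -0.37, Kdm5a -0.12, Kdm5b -0.62, Kdm7a -0.18, Kmt2d -0.055, Kmt2e -0.59, Kmt5b -0.26, Kmt5c -0.27, Prmt2 -0.39, Prmt3 -0.54, Setd1a -0.30, Setd3 -0.58, Setd5 -0.17, Sirt3 -0.18 and Sirt7 -0.44. Kmt2d was called under neither scaling, and each of the other 25 under at least one. The cause of the other changes was not tested. Signal over background limits Hdac8 and Hdac9.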
